A study of Mus musculus with 8 samples.

Results

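Collagens and laminins are the structural proteins of the extracellular matrix, and 55 genes for their chains were described here in nuclei from mouse forebrain. The genes were chosen by symbol alone, as Col followed by a number, a and a number, or as Lama, Lamb or Lamc followed by a digit, with at least 20 unique molecular identifiers (UMIs, counted RNA molecules) over 8 libraries. All 55 genes that matched the symbols passed, 44 collagen and 11 laminin genes of 54232 listed, so none fell just outside the minimum. The lowest were Col17a1 with 94 UMIs and Col10a1 with 98, and the highest was Col25a1 with 70356. The nuclei came from a cube of 2 mm of tissue beside the lesion, from male Swiss Webster mice aged 10 weeks, and were sequenced with the 10x Genomics 3′ kit. The 4 groups had 2 libraries each: control mice, mice with BCAS, mice with traumatic brain injury (TBI), and mice with both injuries (BCAS+TBI). The labels give BCAS only as an abbreviation, which the study's title ties to cerebral hypoperfusion, and they give neither the time after surgery nor the number of mice per library. They call the 2 libraries of a group biological replicates, so p-values measure the spread between these libraries.

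Each collagen is a triple helix of chains, and the chain makeup sets the type. Fibrillar collagens form the tough fibres of meninges and vessel walls, whereas type IV collagen forms the sheet-like network of basement membranes. Laminins are cross-shaped trimers of an alpha, a beta and a gamma chain that bind cell surface receptors and seed the basement membrane. In brain, basement membranes ensheath blood vessels and the pial surface, and fibroblasts, mural cells (pericytes and smooth muscle), endothelium and astrocytes are known contributors.

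The libraries held 28118725 to 56135192 UMIs. They fell into a set of lower totals (control 1, BCAS 1, TBI 1 and BCAS+TBI 2) and a set of higher totals, each with 1 library of every group. Library pairs shared 4 to 15 cell barcodes. Of 45565 nuclei kept, 30962 were placed in a class by marker genes that include no collagen or laminin, so the class names stand for marker-gated nuclei. There were 742 fibroblast, 479 mural, 1155 endothelial, 2643 astrocyte, 2229 oligodendrocyte, 881 oligodendrocyte precursor, 774 microglia, 16813 excitatory neuron, 4792 inhibitory neuron and 349 choroid plexus nuclei, with at least 26 per library in each class. In fibroblast nuclei the fibroblast markers summed to 7937 CPM (a gene's UMIs relative to all UMIs of the class in that library), against 907 in mural nuclei and 56.4 to 156 in the other classes tested. Mural nuclei also held all 13 endothelial markers at 10.5% to 40.0% of their endothelial level, and 4 of 10 fibroblast markers at over 10% of their fibroblast level, while the fibroblast markers Bnc2 and Slc47a1 were at 1.39 CPM each. Microglia nuclei held all 10 oligodendrocyte markers at 10.3% to 14.8% of their own level. Fibroblast nuclei held 5 of 9 astrocyte markers at over 10% of their astrocyte level, with a highest share of 103%. The astrocyte markers summed to 3975 CPM in fibroblast and 3452 in mural nuclei. Oligodendrocyte precursors held 2 of 4 neuron markers at over 10% of their excitatory neuron level. The part of RNA from other classes in the levels below was not tested. CPM is not divided by gene length, so levels are compared for 1 gene between classes and not between genes.

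The summed level of collagen and laminin RNA differed by class. Over the 8 libraries the 55 genes summed to a median of 6793 CPM in fibroblast nuclei (4512 to 8597), 3697 in mural (2804 to 4951), 3717 in choroid plexus (2958 to 4344) and 1473 in endothelial nuclei (1257 to 1848). The 3 glial classes from the brain's own lineage and the microglia lay between medians of 629 and 987 CPM, and excitatory neurons at 728. Inhibitory neurons had a median of 1304 (1100 to 1428), overlapping with endothelial nuclei. By mean level, 23 genes were highest in fibroblasts, 9 in mural, 8 in choroid plexus, 4 in endothelial and 4 in oligodendrocyte precursor nuclei, and 7 in astrocytes, microglia, inhibitory neurons or oligodendrocytes. For 24 genes the leading class was above the second in all 8 libraries, and for 18 the ranges of those classes did not overlap. The leading and second classes were picked by these same levels, and the shares over all genes were not computed. These counts therefore describe the 55 genes and do not set them apart from other genes.

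Each class was tested against the mean of the other classes by edgeR's quasi-likelihood test with the library as a block, and called higher at a Benjamini-Hochberg adjusted p under 0.05 and a log2 difference over 1. Of the 55 genes, 34 passed the filter on low counts. A gene can pass this filter through the class where it is high, so being higher in some class is partly built in. Fibroblast nuclei were higher for 28 of 34, against 11.7% of all 9183 genes tested. Mural nuclei were higher for 26 (all genes 15.6%) and endothelial nuclei for 11 (15.6%). Choroid plexus nuclei were higher for 11 (13.7%), astrocytes for 8 (13.9%), oligodendrocyte precursors for 9 (11.5%) and oligodendrocytes for 3 (11.4%). Microglia were higher for 2 (10.6%), excitatory neurons for 6 (17%) and inhibitory neurons for 5 (15.4%). The fibroblast and mural counts, 28 and 26 of 34, stood farthest above their backgrounds. The reference is a mean of log levels, and 8 of the 34 genes had a class with 0 UMIs, so a call can rest on a low level: 7 of the 109 calls were for classes at under 20 CPM. Levels rather than fitted differences are therefore given for most genes.

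**Figure D1:**
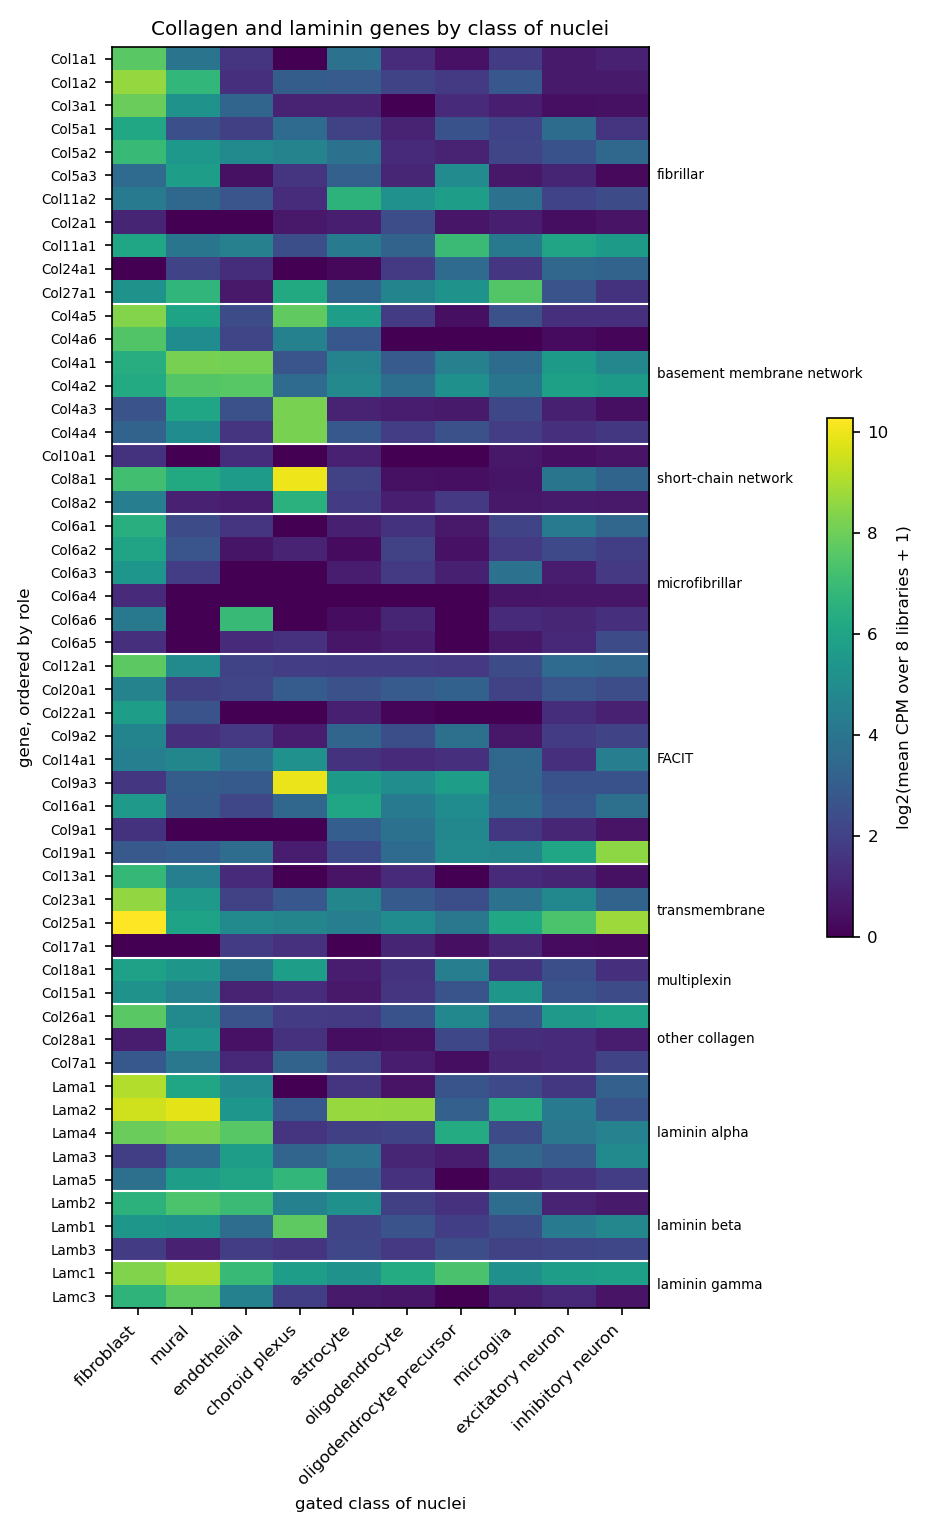
Mean level of 54 of the 55 genes (rows, by role) in 10 classes of nuclei (columns), as log2(mean CPM over 8 libraries + 1). Fibroblast and mural columns are bright for many fibrillar, type IV and laminin genes, while Col8a1, Col9a3, Col4a3 and Col4a4 stand out in choroid plexus and Col19a1 in inhibitory neurons.

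Of 11 fibrillar collagen genes, Col1a1, Col1a2, Col3a1, Col5a1 and Col5a2 were highest in fibroblasts. Col1a1 and Col1a2 encode the chains of type I collagen, and Col3a1 that of type III. Col1a2 had 264 to 532 CPM (median 411) in fibroblast nuclei and 72.2 to 186 CPM in mural nuclei. No mural library reached the lowest fibroblast library, and the mean in endothelial nuclei was 1.72 CPM, against 0.695 in excitatory neurons. Col1a1 had 108 to 369 CPM (median 145) in fibroblasts, 13.7 times the mural mean. Col3a1 had 151 to 411 CPM (median 234), 6.55 times the mural mean. Both were higher in fibroblasts than in mural nuclei in all 8 libraries. Col5a1 and Col5a2, whose type V chains co-assemble with type I, had fibroblast means of 70.7 ± 24.6 and 119.6 ± 17.4 CPM (SD, n = 8). Col5a3 was instead highest in mural nuclei, at 52.5 ± 22.9 CPM (SD, n = 8).

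Col11a1, Col11a2 and Col27a1 were highest in glial classes. Col11a1, a type XI chain best known from cartilage, was highest in oligodendrocyte precursors, with 102 to 150.1 CPM (median 128), above fibroblasts in all 8 libraries. Col11a2 was highest in astrocytes, with 50.7 to 135 CPM (median 103), 1.87 times the precursor mean. Col27a1 was highest in microglia, with 79.5 to 267 CPM (median 216), and mural nuclei came next at 102 CPM (median), with overlapping ranges. Col24a1 stayed at means of at most 11.04 CPM in every class tested, and Col2a1 of at most 4.32.

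Type IV collagen split into 3 patterns, 1 for each pair of genes that lie head to head on a chromosome. Col4a1 and Col4a2, which encode the chains found in nearly all basement membranes, were shared by mural and endothelial nuclei. Col4a1 had 171 to 426 CPM (median 298) in mural nuclei and 228 to 383 CPM (median 259.7) in endothelial nuclei. Each class was the higher in 4 of the 8 libraries, and the ranges overlapped. Col4a2 had means of 192 ± 43.2 CPM in endothelial and 181 ± 86.2 in mural nuclei (SD, n = 8), also overlapping.

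Col4a3 and Col4a4, known from the kidney glomerulus, were led by choroid plexus nuclei. Col4a3 had 169 to 338 CPM (median 314) there, and Col4a4 had 141 to 455 CPM (median 294). Mural nuclei came next for both, at means of 65.5 and 31.3 CPM, and no mural library reached the choroid plexus range. Col4a5 and Col4a6 were led by fibroblasts. Col4a5 had 137 to 529.9 CPM (median 324) in fibroblasts, overlapping with choroid plexus at 156 to 254 CPM. Col4a6 had 73.3 to 254 CPM (median 191) in fibroblasts, and no other class passed 54.3 CPM in any library. In choroid plexus Col4a6 had a mean of 21.5 CPM, against 179 in fibroblasts. Both genes were nevertheless called higher in choroid plexus than in the mean of the other classes.

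The start regions of 1 type IV pair are shown because the 2 genes share them, and those of Col1a2 and Col3a1 because these genes run in parallel from different chromosomes. Each sequence is RefSeq's promoter entry for GRCm38.p6, from 250 bases before to 50 bases after the gene's start, written 5′ to 3′ on the gene's own strand. Capitals mark 3 promoter motifs searched on both strands: the GC box (letters GGGCGG), the box written as CCAAT, and the TATA box (letters TATAAA). Each is a match of letters and not a shown binding site.
Col4a1 (chr8:11312777-11313076, minus strand): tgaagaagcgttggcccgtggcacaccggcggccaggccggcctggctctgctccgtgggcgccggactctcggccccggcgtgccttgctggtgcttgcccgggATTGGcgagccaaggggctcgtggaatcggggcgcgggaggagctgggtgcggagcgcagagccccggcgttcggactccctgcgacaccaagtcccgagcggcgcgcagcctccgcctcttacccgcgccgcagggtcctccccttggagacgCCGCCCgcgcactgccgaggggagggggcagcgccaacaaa
Col4a2 (chr8:11312555-11312854, plus strand): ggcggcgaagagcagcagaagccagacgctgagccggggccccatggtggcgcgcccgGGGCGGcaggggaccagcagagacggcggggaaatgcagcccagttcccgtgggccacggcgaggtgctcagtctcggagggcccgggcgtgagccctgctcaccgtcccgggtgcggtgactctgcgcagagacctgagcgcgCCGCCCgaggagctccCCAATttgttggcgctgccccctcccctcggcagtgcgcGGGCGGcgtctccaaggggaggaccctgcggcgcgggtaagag
Col1a2 (chr6:4505368-4505667, plus strand): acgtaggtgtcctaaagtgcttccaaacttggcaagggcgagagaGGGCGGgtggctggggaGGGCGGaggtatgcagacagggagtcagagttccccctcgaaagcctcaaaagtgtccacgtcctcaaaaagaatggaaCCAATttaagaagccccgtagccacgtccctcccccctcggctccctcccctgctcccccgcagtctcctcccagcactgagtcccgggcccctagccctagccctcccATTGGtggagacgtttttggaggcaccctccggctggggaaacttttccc
Col3a1 (chr1:45311288-45311587, plus strand): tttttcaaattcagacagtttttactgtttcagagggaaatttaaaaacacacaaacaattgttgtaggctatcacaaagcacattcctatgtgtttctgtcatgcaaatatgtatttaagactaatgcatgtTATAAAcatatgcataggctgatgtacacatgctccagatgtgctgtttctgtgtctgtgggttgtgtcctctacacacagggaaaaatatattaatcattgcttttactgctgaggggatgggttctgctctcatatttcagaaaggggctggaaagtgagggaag

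The Col4a1 and Col4a2 windows share 78 bases, and in GENCODE M21 the 5′ ends of the 2 genes overlap by 22 bases on chromosome 8. The corresponding distance from start to start is 72 bases for Col4a3 and Col4a4 and 1309 bases for Col4a5 and Col4a6. GGGCGG occurs 1 time in the Col4a1 window, 3 times in that of Col4a2 and 2 times in that of Col1a2, and not in that of Col3a1, which holds TATAAA 1 time. Over 44 promoter entries of 40 of the 55 genes, 26 held GGGCGG, 14 CCAAT and 5 TATAAA. Over all 32851 entries of the same length, 35.7%, 37.4% and 13.6% did. Across 80 points (10 classes in 8 libraries, log2(CPM + 10)), Pearson's r was 0.91 for Col4a1 with Col4a2, 0.91 for Col4a3 with Col4a4 and 0.83 for Col4a5 with Col4a6. Col1a2 and Col3a1 reached 0.91 from separate chromosomes. These values describe shared class patterns, since the points share libraries, depth and cell classes.

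**Figure D2:**
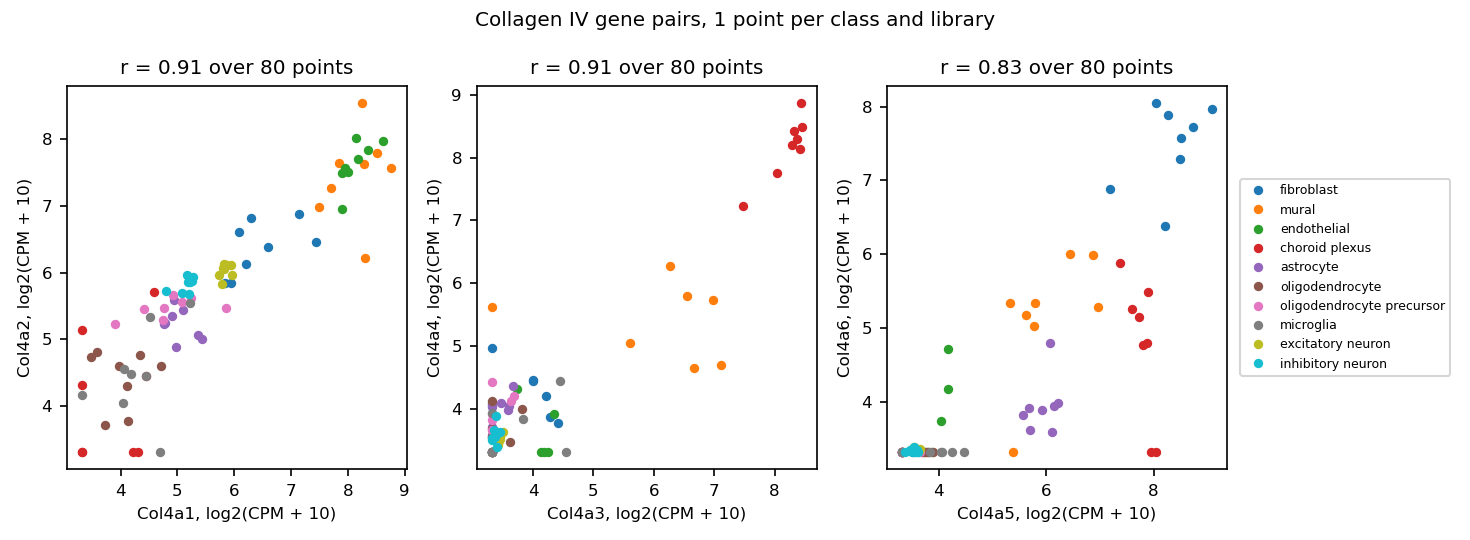
Levels of the 3 head-to-head type IV gene pairs, with 1 point for each of 10 classes in each of 8 libraries (both axes log2(CPM + 10), colour by class). Col4a1 and Col4a2 peak together in mural and endothelial nuclei, Col4a3 and Col4a4 in choroid plexus, and Col4a5 and Col4a6 in fibroblasts. In the last pair, choroid plexus lies inside the fibroblast range for Col4a5 only.

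Choroid plexus nuclei, the epithelium that secretes cerebrospinal fluid, also led the short-chain network collagens. Col8a1 had 653 to 1426 CPM (median 964) there, 7.19 times the fibroblast mean of 143 CPM, and no other class overlapped. Col8a2 had 29.3 to 139 CPM (median 85.3). Col9a3, a chain of the fibril-associated type IX collagen, had 721 to 1253 CPM (median 990.5), 19.5 times the mean of the next class. Its usual partners were led by other classes: Col9a1 was highest in oligodendrocyte precursors, at 26.4 ± 10.03 CPM, and Col9a2 in fibroblasts, at 24.02 ± 14.2 CPM (SD, n = 8). Col10a1, the hypertrophic cartilage collagen, had a mean of at most 1.85 CPM in every class tested.

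Most type VI chains, which form beaded microfibrils around cells, were highest in fibroblasts. Col6a1, Col6a2 and Col6a3 had fibroblast means of 88.3 ± 33.9, 63.4 ± 29.1 and 41.2 ± 13.8 CPM (SD, n = 8), each above the next class in all 8 libraries. Col6a6 was instead led by endothelial nuclei. It had 46.1 to 227 CPM (median 132) in endothelial nuclei, 7.39 times the fibroblast mean, and was above fibroblasts in 7 of 8 libraries. Col6a4 had a mean of at most 1.42 CPM in every class tested. Col6a5 was highest in inhibitory neurons, at a mean of only 4.25 CPM.

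Among the fibril-associated collagens, Col12a1, which decorates type I fibrils, had 86.6 to 365 CPM (median 189.8) in fibroblasts, and Col22a1 had 29.6 to 69.2 CPM (median 49.6). Both were above the next class in all 8 libraries. Among the classes, Col14a1 was spread over choroid plexus, mural and fibroblast nuclei at means of 20.6 to 35.7 CPM. A neuron cluster with a higher Col14a1 level is given with the neurons. Col20a1 was highest in fibroblasts at 23.4 CPM. Col16a1 was highest in astrocytes, with 46.4 to 101 CPM (median 61.6), overlapping with fibroblasts. Col19a1 was a neuronal gene here, as described with the neurons.

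The transmembrane collagens were largely fibroblast genes. Col23a1 had 198 to 574 CPM (median 383) and Col13a1 42.5 to 223 CPM (median 116) in fibroblasts, at 8.68 and 5.53 times the mural means. Col25a1, a membrane collagen known from neurons, had 477 to 2591 CPM (median 921) in fibroblasts, and inhibitory neurons came next at 438 CPM. Col17a1 stayed at means of at most 2.57 CPM. Col26a1 had 113 to 277 CPM (median 201) in fibroblasts, above inhibitory neurons in all 8 libraries. Col15a1 and Col18a1, the basement-membrane proteoglycan collagens whose ends release antiangiogenic fragments, were not set apart by any 1 class: Col15a1 had means of 42.2 CPM in microglia and 37.8 in fibroblasts, and Col18a1 57.6 in fibroblasts and 52.0 in choroid plexus. Col28a1 and Col7a1 were highest in mural nuclei, at 40.8 and 16.2 CPM.

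Laminin alpha chains, which carry the receptor-binding domains, differed by class. Lama1 had 369 to 705 CPM (median 563) in fibroblasts, 8.12 times the mural mean, and no mural library reached the fibroblast range. Lama2, the chain of muscle and glial laminin whose loss causes a muscular dystrophy with white matter changes, was broader. It had 479 to 1458 CPM (median 911) in mural nuclei and 645 to 897 CPM (median 717) in fibroblasts. Astrocytes followed at 412 ± 102 and oligodendrocytes at 397 ± 93.5 CPM (SD, n = 8), while endothelial nuclei had 41.5 and inhibitory neurons 5.19. Against the mean of the other classes it was higher in mural (log2 difference 4.09, SE 0.14), fibroblast (log2 difference 3.70, SE 0.12), astrocyte (log2 difference 3.07, SE 0.11) and oligodendrocyte nuclei (log2 difference 2.99, SE 0.12). The microglia mean of Lama2, 86.2 CPM, stands beside oligodendrocyte markers at 10.3% to 14.8% of their level in those nuclei, and the part of that RNA was not tested.

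Lama4, the chain of vascular laminin, was high in mural, fibroblast and endothelial nuclei. It had 173 to 462 CPM (median 272) in mural, 141 to 340.3 CPM (median 247) in fibroblast and 97.9 to 260.3 CPM (median 238) in endothelial nuclei, with overlapping ranges. In endothelial nuclei the libraries BCAS 1, TBI 1 and BCAS+TBI 2, all of the lower set, lay at 97.9 to 112 CPM and the others at 237 to 260. Oligodendrocyte precursors also carried Lama4, at 79.2 ± 20.9 CPM (SD, n = 8). Lama5, the other endothelial alpha chain, was highest in choroid plexus at 109 ± 35.1 CPM and next in endothelial nuclei at 63.7 ± 19.6 (SD, n = 8). Lama3, the epithelial chain, was highest in endothelial nuclei at 52.7 ± 34.5 CPM (SD, n = 8), overlapping with inhibitory neurons.

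Of the beta and gamma chains, Lamb2, Lamc1 and Lamc3 were highest in mural nuclei. Lamb2 had 112 to 228 CPM (median 166) in mural and 65.3 to 185 CPM in endothelial nuclei. Lamb1 was instead led by choroid plexus, with 84.5 to 319.6 CPM (median 220.5), 4.88 times the fibroblast mean and with no overlap. Lamc1, the gamma chain of most laminins, had 199.6 to 938 CPM (median 557) in mural nuclei and 241 to 393 CPM (median 312) in fibroblasts, and its log2 difference in mural nuclei was 2.60. Lamc3 had 160.2 to 245 CPM (median 211) in mural nuclei, above fibroblasts in all 8 libraries. Lamb3, a chain of skin laminin, had a mean of at most 4.33 CPM in every class tested.

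**Figure D3:**
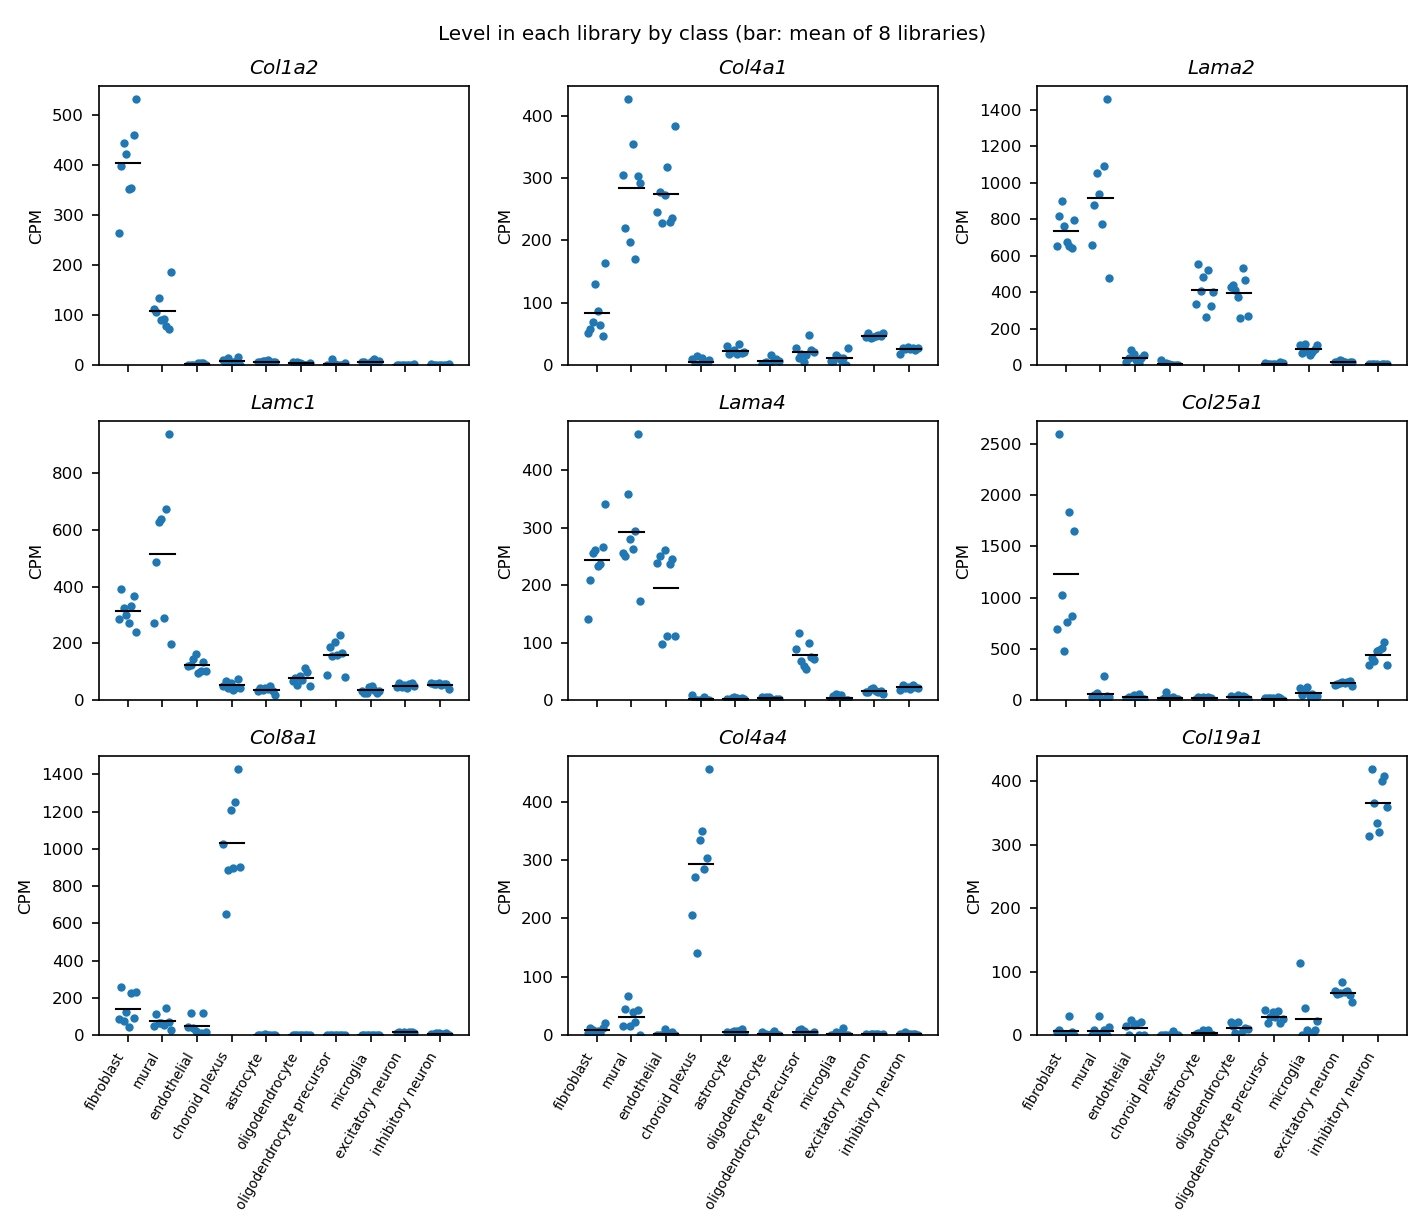
Level of 9 genes in each class (horizontal axis) and library (points), in CPM on a linear axis from 0, with the mean of 8 libraries as a bar. Fibroblasts lead Col1a2 and Col25a1, mural and endothelial nuclei Col4a1, choroid plexus Col8a1 and Col4a4, and inhibitory neurons Col19a1, while Lama2 is also high in astrocytes and oligodendrocytes.

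In glia and neurons the genes that held the most UMIs differed by class. UMIs per gene depend on its length, so these lists name genes and do not rank their levels. Beside Lama2 they were Col11a2, Col16a1 and Col4a5 (51.6 ± 10.21 CPM, SD, n = 8) in astrocytes, and Lamc1 (77.6 CPM), Col11a2 (36.0) and Col9a3 (31.5) in oligodendrocytes. In oligodendrocyte precursors they were Lamc1 (159 ± 52.0 CPM, SD, n = 8), Col11a1, Lama4 and Col11a2, with Lama2 at 7.92 CPM against 397 in oligodendrocytes. In microglia they were Col27a1, Lama2, Col25a1 (67.9 CPM) and Col15a1.

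Col19a1, a fibril-associated collagen with a known role at inhibitory synapses, was highest in inhibitory neurons. It had 313 to 419 CPM (median 363) there, against 52.6 to 83.4 CPM (median 67.1) in excitatory neurons, a ratio of means of 5.44 with no overlap (log2 difference 5.26, SE 0.11). Clusters made without any collagen or laminin gene divided it further. The inhibitory cluster led by Sst, Crhbp and Npy had a median of 598 (497 to 694) CPM (range in brackets), while the highest of the clusters named excitatory, led by Igfn1 and Pparg, had 276 (245 to 300.3). Col25a1 had 339 to 563 CPM (median 443) in inhibitory and 135 to 188 CPM in excitatory neurons. Among clusters named excitatory or inhibitory by the markers, its highest were a small excitatory one led by D130079A08Rik, Nwd2 and Syt9, at 899 (547 to 1193) CPM, and the inhibitory one led by Vip and Adarb2, at 861 (629 to 1086). Col11a1 reached 364 (271 to 457) CPM in the excitatory cluster led by Gm32647, Ccbe1 and Shisa6, and the next excitatory cluster 142 (84.1 to 257). Col26a1 and Lamc1 had means of 58.5 and 54.8 CPM in inhibitory neurons, and Col4a2 of 55.5 in excitatory neurons. Clusters that the markers did not name, some of them led by neuron genes such as Drd2, were not compared. The cluster values are descriptions without a test.

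Fibroblast nuclei formed 2 clusters that differed in collagen and laminin levels. The 2 fibroblast clusters, made without collagen and laminin genes, were cluster 23 (701 nuclei, led by Ranbp3l and Slc6a13) and cluster 34 (230 nuclei, led by Slc47a1 and Bnc2). Both were present in all 8 libraries. Lama1 had a median of 748 (492 to 1025) CPM in cluster 23 and 0 (0 to 19.0) in cluster 34. Col4a6 had 226 (118 to 303) and 0 (0 to 11.7), and Col4a5 405 (180.0 to 681) and 19.99 (0 to 41.6). Col26a1, Col13a1 and Lamc3 likewise had medians of 253, 146 and 129 CPM in cluster 23 and 0 in cluster 34.

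Col25a1 ran the other way, at 3068 (2714 to 5179) CPM in cluster 34 and 51.6 (15.7 to 82.2) in cluster 23. Col12a1 had 318 (148 to 641) CPM in cluster 34 and 102 (48.6 to 189) in cluster 23. Col8a1 had 188 against 65.9 CPM, and Col6a1 145 against 43.8. Col1a2 and Lama2 were present in both, at 384 and 759 CPM in cluster 23 and 178 and 441 in cluster 34. Cluster 34 supplied 11.5% to 34.6% of the gated fibroblast nuclei of a library, which bears on every fibroblast level given per library.

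**Figure D4:**
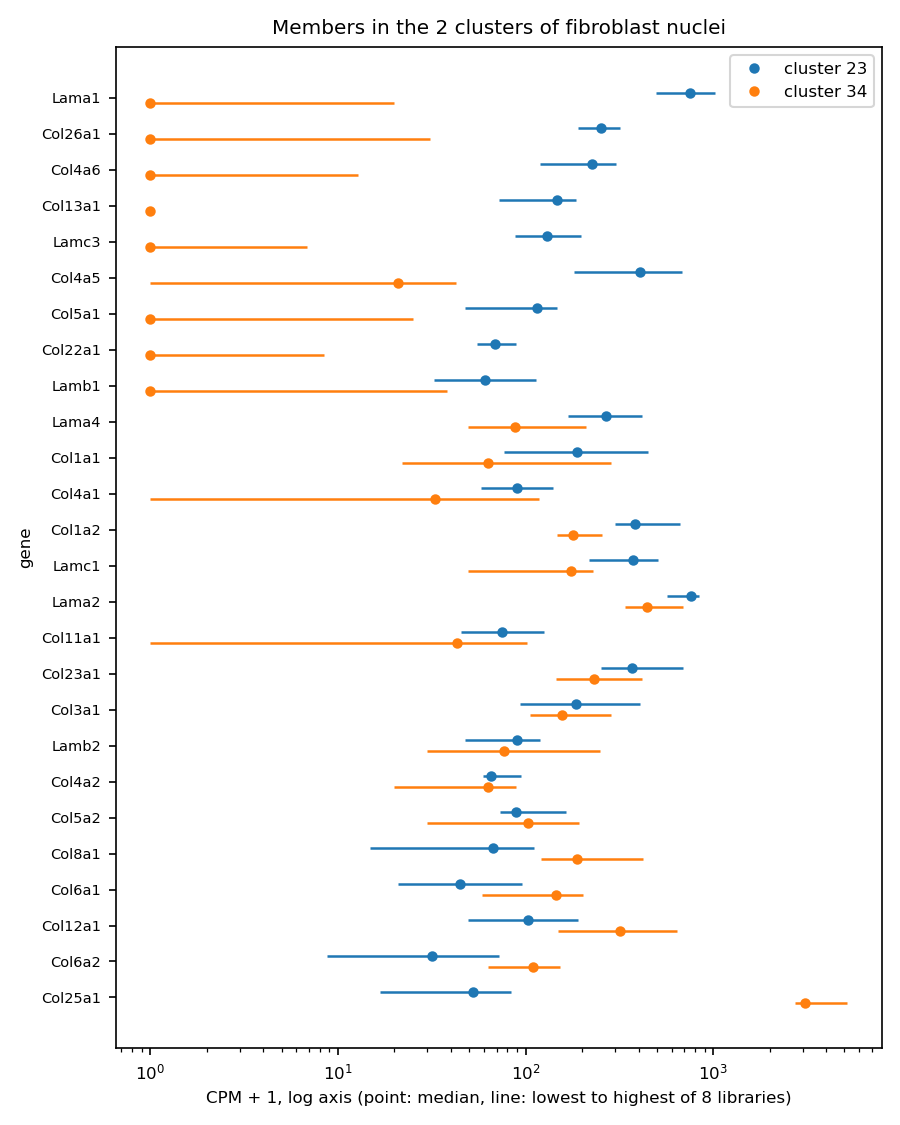
Level of the collagen and laminin genes with at least 100 UMIs in the 2 fibroblast clusters (horizontal axis CPM + 1, log scale), with the median of 8 libraries as a point and the lowest to highest library as a line. Lama1, Col26a1, Col4a6, Col13a1 and Lamc3 sit at or near 0 in cluster 34, and Col25a1 is the reverse, with no overlap of the ranges.

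Genes that assemble, cross-link, bind or remodel the matrix were counted from a list of 72, of which 53 were tested. Fibroblast nuclei were higher for 27 of 53 (all genes 11.7%), mural for 26 (15.6%), endothelial for 23 (15.6%), choroid plexus for 15 (13.7%) and astrocytes for 13 (13.9%). Microglia were higher for 10 (10.6%), oligodendrocytes for 9 (11.4%), their precursors for 6 (11.5%), excitatory neurons for 5 (17%) and inhibitory neurons for 4 (15.4%). The counts by sublist below stand beside these same shares. Of 9 basement membrane partners, 8 were higher in fibroblasts, 8 in endothelial and 7 in mural nuclei, among them the nidogen genes Nid1 and Nid2, which link laminin to type IV collagen, and Hspg2 (perlecan). Of 11 receptors, endothelial and mural nuclei were higher for 6 each, with the laminin receptor gene Itga6 and the collagen receptor gene Itga1 in both. Fibroblasts were higher for 5, including the collagen receptors Ddr2 and Itga11. Of 15 genes for biosynthesis and cross-linking, fibroblasts, astrocytes, choroid plexus and oligodendrocytes were each higher for 5. Serpinh1, the collagen chaperone, and Plod2, a lysyl hydroxylase, were higher in fibroblasts, mural nuclei and astrocytes, and Serpinh1 also in endothelial and choroid plexus nuclei. Of 6 metalloproteinase and inhibitor genes, oligodendrocyte precursors were higher for 4, Mmp14, Mmp15, Mmp16 and Timp4.

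Between the surgery groups no collagen or laminin gene passed the threshold in any class. In each class edgeR's quasi-likelihood test was fitted to all 8 libraries, 173 pairs of a class and a gene (52 genes) passed the filter, and p-values were adjusted by Benjamini-Hochberg over 82344 pairs of all genes and classes. The TBI effect averaged over BCAS called 0 of 173 pairs, with 0 of all 82344 pairs called as well, and 4 pairs had an unadjusted p under 0.05 (all pairs 1.25%). The BCAS effect averaged over TBI called 0, with 4 at an unadjusted p under 0.05 (all pairs 1.15%). BCAS+TBI against TBI called 0, with 4 (0.938%), and the interaction of the surgeries called 0, with 4 (1.06%). Against control, TBI called 0, with 5 (1.1%), BCAS 0, with 2 (1.22%), and BCAS+TBI 0, with 2 (1.03%). These 3 comparisons share the control libraries. DESeq2 also called 0 in each. With the library set as a block the counts of called pairs stayed at 0, and 13, 8, 15, 16, 12, 13 and 7 pairs in the same order had an unadjusted p under 0.05 (all pairs 4.91%, 4.21%, 4.11%, 4.56%, 4.07%, 4.58% and 3.63%). Of all 82344 pairs the block called 0.00729%, 0.00972%, 0.00121%, 0.0146%, 0.0085%, 0.0449% and 0.00364%. Without the block, the spread within a group takes in the difference between the lower and higher library sets. At most 1.25% of all pairs then had an unadjusted p under 0.05, against at least 3.63% with the block. The p-values without the block thus ran large. With 2 libraries a group, a difference that misses the threshold is not shown to be absent.

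Col1a1 in fibroblasts had the smallest p-value of the TBI effect. Its level was 137 and 130.0 CPM in control, 128 and 108 in BCAS, 239.7 and 154 in TBI, and 313 and 369 in BCAS+TBI, from 14 to 53 UMIs per library. All 4 libraries with TBI surgery lay above all 4 without it, and BCAS+TBI lay above TBI alone. The gene was picked by its p-value from these same levels. The share of all pairs separated in this way was not computed, so the separation describes this gene only. The TBI effect averaged over BCAS did not pass (log2 difference 1.06, SE 0.24, edgeR adjusted p = 1.00). With the library set as a block it was log2 difference 1.05, edgeR adjusted p = 0.448. BCAS+TBI against control had log2 difference 1.38, SE 0.32, edgeR adjusted p = 1.00, and BCAS+TBI against TBI log2 difference 0.85, SE 0.32, edgeR adjusted p = 1.00.

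Within fibroblast cluster 23, Col1a1 had 310.2 CPM on average with TBI surgery and 141 without, and the ranges overlapped. Within cluster 34 it had 127 and 40.4 CPM from 44 UMIs in all, without overlap. Its partner Col1a2 in cluster 23 had means of 539.8 CPM with and 354 without TBI surgery, with overlapping ranges. In cluster 34 the order of the Col1a2 means was the other way, at 181 CPM with and 194 without. The summed fibroblast markers were at 7752 to 8388 CPM with and 6219 to 8439 without TBI surgery. The mural markers in these nuclei were at 462 to 610 and 396 to 800, and both lists overlapped between the arms. The part of cluster shares and of RNA from other classes in the Col1a1 values was not tested. Col3a1 was 151 and 245 CPM in control, 222 and 208 in BCAS, 273 and 184 in TBI, and 254 and 411 in BCAS+TBI (log2 difference 0.77, SE 0.36, edgeR adjusted p = 1.00 for BCAS+TBI against control). Lama4 was 141 and 209 CPM in control, 256 and 261 in BCAS, 233 and 237 in TBI, and 266 and 340.3 in BCAS+TBI in fibroblasts (log2 difference 0.81, SE 0.30, edgeR adjusted p = 1.00).

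For BCAS surgery the smallest p-value in fibroblasts belonged to the basement membrane gene Col4a6. Its level was 108 and 181 CPM in control, 239 and 254 in BCAS, 73.3 and 147 in TBI, and 201 and 227 in BCAS+TBI, so that the 4 libraries with BCAS surgery lay above the 4 without. The effect did not pass (log2 difference 0.83, SE 0.26, edgeR adjusted p = 1.00). Col4a6 too was picked by its p-value from these levels, and the share of all pairs separated in this way was not computed. Lamc3 was 66.0 and 69.5 CPM in control, 137 and 192 in BCAS, 79.9 and 86.5 in TBI, and 106 and 63.8 in BCAS+TBI. Both BCAS libraries lay above both control libraries (log2 difference 1.24, SE 0.37, edgeR adjusted p = 1.00 for BCAS against control), while BCAS+TBI and TBI overlapped. Col18a1 was 28.3 and 33.3 CPM in control, 68.4 and 76.9 in BCAS, 79.9 and 45.1 in TBI, and 65.0 and 63.8 in BCAS+TBI (log2 difference 1.18, SE 0.54, edgeR adjusted p = 1.00). Of the 27 genes tested in fibroblasts, 22 had a positive BCAS effect averaged over TBI (median log2 0.26), while 50.8% of all 4564 genes did (median 0.01). In mural nuclei all 8 genes tested were positive (median 0.22), against 49.5% of 2250 genes (median -0.01). In endothelial nuclei 7 of 12 were (median 0.05), against 50.5% of 5615 genes. Astrocytes had 8 of 16 positive, oligodendrocytes 2 of 8, oligodendrocyte precursors 3 of 10, microglia 1 of 3, excitatory neurons 27 of 50, inhibitory neurons 15 of 31 and choroid plexus 5 of 8. Of all genes, 46.45% to 52.2% were positive in these classes. Over all 173 pairs 98 were positive and 75 negative (median 0.04). The TBI effect averaged over BCAS was also uneven by class. It was positive for 8 of 8 genes in choroid plexus, 7 of 8 in mural nuclei and 16 of 27 in fibroblasts. In astrocytes it was positive for 4 of 16 and in oligodendrocyte precursors for 2 of 10. Endothelial nuclei had 4 of 12 positive, oligodendrocytes 4 of 8, microglia 0 of 3, excitatory neurons 20 of 50 and inhibitory neurons 14 of 31. Of all genes, 50.6% to 54.5% were positive by class. Over all 173 pairs 79 were positive and 94 negative (median -0.03). Genes of 1 class share the same libraries, so these counts are not independent. None of these effects passed the threshold singly.

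Cluster 34, which nearly lacks Col4a6, supplied 21.7% and 11.5% of fibroblast nuclei in the BCAS libraries, 21.5% and 34.6% in BCAS+TBI, 25.5% and 30.7% in control, and 23.6% and 32.3% in TBI. Within cluster 23, Col4a6 averaged 254 CPM with and 190.1 without BCAS surgery, with overlapping ranges, and Lamc3 137 and 129.7. The part of the cluster shares in the class values was not tested.

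**Figure D5:**
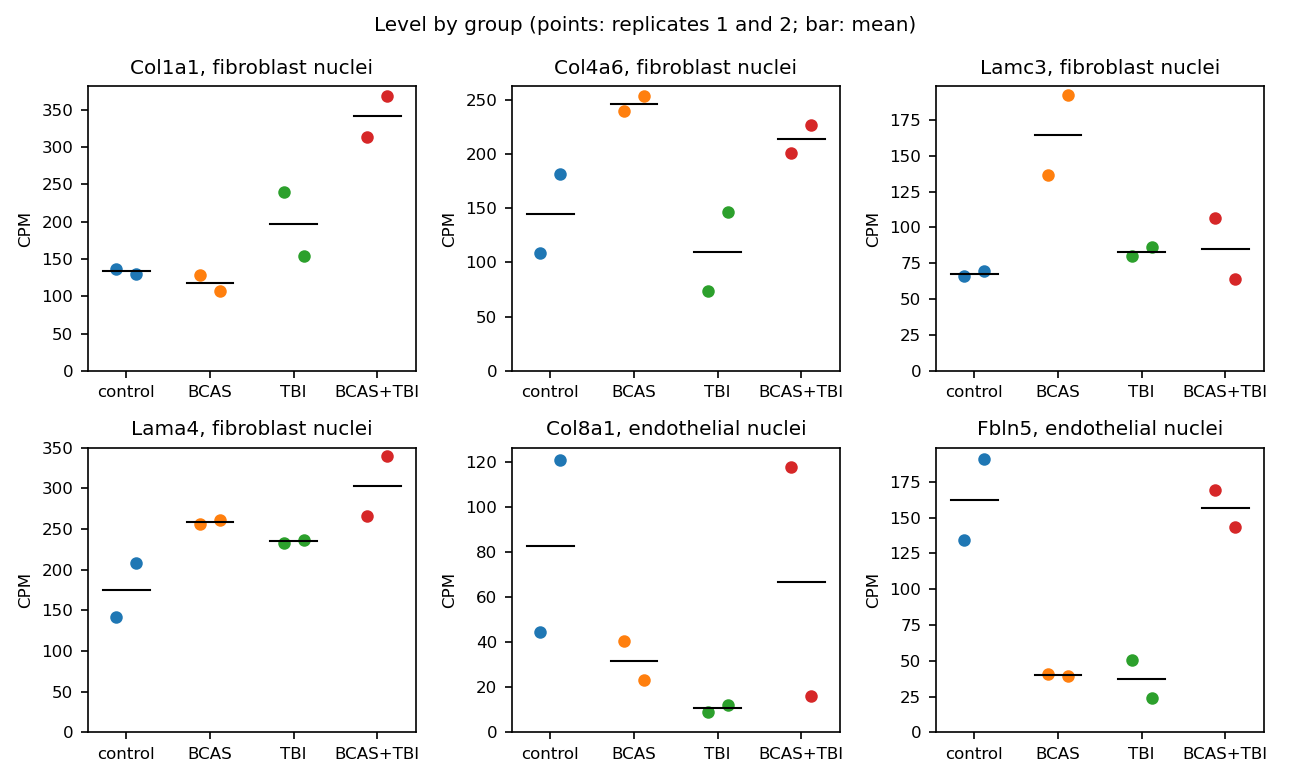
Level by group of 4 genes in fibroblast nuclei and 2 in endothelial nuclei, in CPM on linear axes from 0, with replicates 1 and 2 as points and their mean as a bar. Col1a1 lies higher in the 4 libraries with TBI surgery and Col4a6 in the 4 with BCAS surgery, while Fbln5, a matrix gene outside the collagens and laminins, is low in BCAS and in TBI and high in control and BCAS+TBI. The genes were picked by their p-values from these same levels.

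In endothelial nuclei Col8a1, a short-chain collagen, had the largest fitted effect of the named genes. Its level was 44.7 and 121 CPM in control, 40.8 and 23.1 in BCAS, 9.22 and 12.1 in TBI, and 118 and 15.96 in BCAS+TBI, from 2 to 40 UMIs per library. TBI lay under control (log2 difference -2.91, SE 0.84, edgeR adjusted p = 1.00), with log2 difference -2.87, edgeR adjusted p = 0.351 under the library set block. The interaction was log2 difference 4.18, SE 1.15, edgeR adjusted p = 1.00, with log2 difference 4.25, edgeR adjusted p = 0.298 under the block. BCAS+TBI against TBI had log2 difference 2.64, SE 0.88, edgeR adjusted p = 1.00, which rests on BCAS+TBI 1, since BCAS+TBI 2 was close to the TBI libraries. With the library set as a block the interaction passed when control 1, BCAS 1, TBI 1 or BCAS+TBI 2 was left out (adjusted p 0.00238 to 0.00816).

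Lama2 in endothelial nuclei was 14.9 and 36.3 CPM in control, 81.6 and 62.6 in BCAS, 27.7 and 12.1 in TBI, and 41.0 and 55.9 in BCAS+TBI (log2 difference 1.27, SE 0.48, edgeR adjusted p = 1.00 for BCAS averaged over TBI), from 2 to 19 UMIs. The mural markers in the same nuclei were at 918 to 1420 CPM with and 514 to 1038 without BCAS surgery, and mural nuclei carry Lama2 at 917 CPM. Their part in the endothelial value was not tested. Col6a6 was 59.6 and 227 CPM in control, 81.6 and 46.1 in BCAS, 175 and 137 in TBI, and 144 and 128 in BCAS+TBI. BCAS 1 lay between the control libraries and BCAS 2 below both (log2 difference -1.32, SE 0.55, edgeR adjusted p = 1.00), and without control 2 the sign turned (log2 0.02). Haemoglobin genes in endothelial nuclei (4 listed) summed to 954 and 811 CPM in control, 25219 and 2794 in BCAS, 45013 and 2060 in TBI, and 267 and 2904 in BCAS+TBI. Their part in the endothelial values was not tested.

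In the other classes the named genes did not pass either. Col25a1 in microglia was 121 and 45.6 CPM in control, 84.8 and 126 in BCAS, 40.9 and 59.6 in TBI, and 23.9 and 41.1 in BCAS+TBI (log2 difference -1.20, SE 0.42, edgeR adjusted p = 1.00 for TBI averaged over BCAS). Col8a2 in choroid plexus was 29.3 and 76.3 CPM in control, 70.4 and 84.7 in BCAS, 131 and 139 in TBI, and 131 and 85.8 in BCAS+TBI (log2 difference 1.31, SE 0.49, edgeR adjusted p = 1.00 for TBI against control). The effect averaged over BCAS was log2 difference 0.88, SE 0.34, edgeR adjusted p = 1.00. Lama2 in excitatory neurons was 15.7 and 19.6 CPM in control, 27.0 and 24.1 in BCAS, 15.9 and 9.60 in TBI, and 18.9 and 17.8 in BCAS+TBI (log2 difference 0.51, SE 0.18, edgeR adjusted p = 1.00 for BCAS averaged over TBI). In the same nuclei the 10 oligodendrocyte markers summed to 421 and 325 CPM in control, 563 and 454 in BCAS, 373 and 100.4 in TBI, and 398 and 433 in BCAS+TBI. The 9 astrocyte markers summed to 158 and 133 CPM in control, 183 and 185 in BCAS, 119 and 51.5 in TBI, and 123 and 171 in BCAS+TBI. TBI 2 was the lowest library for Lama2 and for both marker lists, and BCAS libraries were the highest for all 3. Both glial classes carry Lama2, and their part in the neuron value was not tested.

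Col20a1 in inhibitory neurons was 3.31 and 4.41 CPM in control, 6.44 and 5.74 in BCAS, 6.74 and 4.04 in TBI, and 2.20 and 1.65 in BCAS+TBI (log2 difference -1.35, SE 0.48, edgeR adjusted p = 1.00 for BCAS+TBI against TBI, and log2 difference -1.96, SE 0.64, edgeR adjusted p = 1.00 for the interaction). Col16a1 in oligodendrocyte precursors was 22.3 and 14.2 CPM in control, 68.8 and 32.4 in BCAS, 46.0 and 34.3 in TBI, and 15.9 and 15.3 in BCAS+TBI (log2 difference -2.74, SE 0.96, edgeR adjusted p = 1.00 for the interaction). Col11a1 in astrocytes was 7.80 and 14.4 CPM in control, 17.4 and 18.2 in BCAS, 24.4 and 26.5 in TBI, and 23.997 and 15.7 in BCAS+TBI (log2 difference 1.09, SE 0.45, edgeR adjusted p = 1.00 for TBI against control). These 3 genes had 3 to 37 UMIs per library in those classes.

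Of 310 class-gene pairs of the matrix partner list (66 genes), none passed in any contrast in the main setting, which has no block. With the library set as a block 1 passed, Fbln5 in endothelial nuclei in the interaction. Fbln5 encodes fibulin-5, an elastic fibre protein. Its level was 134 and 191 CPM in control, 40.8 and 39.5 in BCAS, 50.7 and 24.1 in TBI, and 169 and 144 in BCAS+TBI, from 5 to 63 UMIs. Both single-surgery groups lay under control, and the BCAS+TBI libraries lay within the control range. Fbln5 was also higher in fibroblasts than in the mean of the other classes, and the 10 fibroblast markers in endothelial nuclei summed to 142 and 175 CPM in control, 73.4 and 125 in BCAS, 36.9 and 121 in TBI, and 164 and 120 in BCAS+TBI. Their part in the Fbln5 values was not tested. The interaction was a log2 difference of 4.02 (SE 0.65, adjusted p = 1.00 by edgeR's quasi-likelihood test) and, with the block, 4.07 (SE 0.58, adjusted p = 0.00427). Without the block and with no filter on low counts, it was log2 3.97 (edgeR adjusted p = 0.00889). When nuclei with more than 3 times their class median of UMIs were dropped, the blocked adjusted p was 0.0776, and with DESeq2 and the block 0.0266. Leaving out each library under the block kept it between 4e-07 and 0.0325. In the same nuclei P4ha1, a prolyl hydroxylase gene, had an interaction of log2 1.99 (adjusted p = 1.00) and Mmp16, a membrane metalloproteinase gene, of log2 -1.84 (adjusted p = 1.00).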

How the data were processed

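Nuclei of 8 libraries, 2 per surgery group, were analysed from UMI counts per gene and barcode. The authors deposited raw, unnormalized counts. Per the file headers, Cell Ranger 7.0.0 wrote them. The submitters' processing notes name GRCm38, mm10 and Seurat, and other settings are not given in the sources used here. Of 53390 barcodes, 4922 with under 500 UMIs, under 300 genes or over 5% mitochondrial UMIs were left out. The 6% of the remaining barcodes with the highest Scrublet scores in each library, 2903 in all, were removed as doublets.

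Nuclei were placed in classes by marker UMIs: at least 3 UMIs of at least 2 markers, 5-fold enrichment, 2 times the second class and few neuron markers, or, for neurons, at least 10 neuron UMIs. These limits were set after marker levels were seen. In the fibroblast class 11 nuclei had exactly 3 marker UMIs. The remaining 14603 nuclei were left out, and ependymal nuclei were too few to test. Leiden clusters (scanpy 1.11.5, igraph 0.11.9, Python 3.11.15, 3000 variable genes, 30 components, 15 neighbours, resolution 1) were made without collagen and laminin genes.

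UMIs were summed by class and library and tested with edgeR 4.0.16 in R 4.3.3 (quasi-likelihood test, TMM scaling, genes filtered by filterByExpr at a count of 10, Benjamini-Hochberg over all classes and genes, threshold 0.05). The procedure was tested on simulated data. For a simulated 2-fold TBI change without a block, 13.2% of the changed class-gene pairs tested were called, and 6% in fibroblasts. For a 4-fold change 93.8% were called, and 97% in fibroblasts. Real changes near 2-fold would thus mostly be missed. The simulation changed many genes at once in every class and held no difference between library sets. It therefore does not give the share of isolated 4-fold changes that would be called in these data. Group comparisons used all 8 libraries without a block. A block for the library set, DESeq2 1.42.0, RLE size factors, other filters, gates and doublet settings, and leaving out each library were alternatives. The block combined with another alternative was chosen after seeing the data. Named genes were, in each class, the 4 with the highest mean CPM, and for each group comparison the 3 class-gene pairs with the smallest p-values. The leading class of every gene was also given. Genes named from clusters and Fbln5's alternatives were chosen after their values were seen. The genes and lists were chosen with earlier results of these data known. Replicate numbers did not pair the libraries: over 60 pairs of groups within classes, deviations of same-numbered libraries correlated at -0.90 to 0.86, and 28 passed 0.1. Over the same 60 pairs, libraries of 1 set correlated at -0.15 to 0.90, and 53 passed 0.1.

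Counting does not separate overlapping genes fully: 20 of the 55 genes overlap a gene on the same strand, non-coding in each case. Promoter sequences are RefSeq's, and positions of gene starts are from GENCODE's GRCm38 annotation. The values of 1 of the 55 genes are not reported here.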

Additional observations from a re-analysis of the deposited data

Results flagged for a closer look

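In 60 sets of 4 libraries that share a surgery, 3 had a library whose gap to the nearest other was too large a part of the range by Dixon's 95% limit. Chance gives such a gap in about 1 of 20 sets. Col8a2 in choroid plexus nuclei was at 85.8 CPM in BCAS+TBI 2, while the other libraries with TBI surgery were at 131, 131 and 139 CPM. Col8a1 in endothelial nuclei was at 118 CPM in BCAS+TBI 1, with 9.22, 12.1 and 15.96 CPM in the other libraries with TBI surgery. Lama4 in fibroblast nuclei was at 340 CPM in BCAS+TBI 2, above the other libraries with BCAS surgery at 256, 261 and 266 CPM.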

How the results depend on the processing

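The count of class-gene pairs higher in a class was 109. It was 59 with a minimum count of 30, which tests fewer genes, and 108 to 119 when each library was left out. Over the alternatives it ranged from 59 to 154.

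Between groups, every alternative without the library set block called 0 collagen or laminin pairs, also with the replicate number as a block (0 calls in each comparison). The library set block alone called 0. With that block and 1 library left out, calls ranged from 0 to 1 for TBI averaged over BCAS (Lama2 in excitatory neurons, without TBI 1), 0 to 1 for BCAS averaged over TBI (the same gene without TBI 1, and Col6a6 in endothelial nuclei without control 1), 0 to 1 for the interaction (Col8a1 in endothelial nuclei without control 1, BCAS 1, TBI 1 or BCAS+TBI 2) and 0 to 2 against control. The calls against control were Col8a1 for TBI (without control 1, BCAS 1, BCAS 2, TBI 1 or BCAS+TBI 2) and Col6a6 for BCAS (without control 1). The oligodendrocyte and astrocyte markers in excitatory neurons were, like Lama2, lowest in TBI 2 (100.4 and 51.5 CPM) and highest in BCAS libraries, and their part in the Lama2 calls was not tested. Where a group kept 1 library, it was assumed to vary like the others.

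For the 21 named results, 634 alternatives gave 621 values of the same direction and side of the threshold, 11 past the threshold and 2 of the other sign. Both of the latter were Col6a6 in endothelial nuclei for BCAS against control. Its log2 difference ranged from -1.883 (without control 1) to 0.0199 (without control 2), and without control 2 it was 0.1859 with the library set as a block. The cause was not tested. Choroid plexus had 26 to 62 and mural 42 to 84 nuclei per library.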
